A study of Oryza sativa with 6 samples.

Results

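Oil bodies, the organelles in which seeds store fat, were followed through the transcripts of 3 of their coat proteins in developing rice seeds. The members were picked by locus identifier as the 18 kDa oleosin (LOC_Os03g49190, chromosome 3), the 16 kDa oleosin (LOC_Os04g46200, chromosome 4) and the caleosin EFA27 (LOC_Os04g43200, chromosome 4), 3 of the 55986 loci in the deposited expression table. All 3 had at least 1 RPKM on average, the minimum for testing, in each group. RPKM values are read numbers divided by gene model length and by library depth, so levels can be compared between genes of different length. The names come with the locus list, since the deposited table holds identifiers only.

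The knockdown group was rbpl, a knockdown line of RBP-L, which is an RNA-binding protein, and the wild-type group was the cultivar ZH11, each with 3 biological repeats. Seeds of both groups were collected 10 to 14 days after flowering from plants grown at 27 °C in days of 12 h light and 12 h dark, and were dehulled before RNA was extracted. The labels do not say how the knockdown was made or whether a library pooled seeds or plants. A single rbpl line was compared with the cultivar, so the lowering of RBP-L and the descent of the line cannot be told apart.

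An oil body is a droplet of triacylglycerol bounded by a single layer of phospholipid, into which its coat proteins are inserted. Oleosins are the main coat proteins. A long hydrophobic hairpin anchors them in the droplet, and they keep neighbouring droplets from fusing as the seed dries. Caleosins share the anchored hairpin and add a calcium-binding EF-hand, and members of the family have peroxygenase activity. In cereal grains oil bodies are found chiefly in the embryo and in the aleurone, the outer cell layer of the endosperm, while the starchy endosperm holds starch and storage protein.

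The caleosin transcript was about 2-fold higher in the knockdown, whereas neither oleosin passed the test. Of the 3 members, 1 rose and 0 fell (limma on log2(RPKM + 1), Benjamini-Hochberg adjusted p below 0.05), against a background of 3.46% of all 17507 tested loci that rose and 3.1% that fell. The median log2 fold change of the members was 0.16, and that of all tested loci was -0.04. RNA came from whole seeds, so a change in the number of cells of a type and a change in RNA per cell cannot be told apart. Other markers of embryo and aleurone were not analysed here, and whether the share of these tissues moved with the caleosin was not tested.

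The labels were checked on the target. RBP-L (LOC_Os04g53440) stood at 15.1, 14.4 and 15.3 RPKM in knockdown libraries rbpl-1 to rbpl-3, against 62.8, 56.8 and 51.2 RPKM in wild-type libraries WT-1 to WT-3. Library totals recovered from the RPKM steps ran from 44187374 to 50714582 reads. WT-1 stood apart: over the tested loci it correlated at 0.965 with WT-2 and at 0.966 with WT-3, while WT-2 and WT-3 correlated at 0.995 and the knockdown libraries among themselves at 0.993 to 0.994. WT-2 and WT-3 correlated at 0.970 to 0.974 with the knockdown libraries, so they lay closer to these than to WT-1. WT-1 itself correlated at 0.953 to 0.963 with the knockdown libraries. Results are therefore also given without WT-1.

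Caleosin EFA27 is the calcium-binding member, and its rice gene is known for induction by abscisic acid and osmotic stress in vegetative tissue. Its level was 35.4, 37.3 and 37.8 RPKM in rbpl-1, rbpl-2 and rbpl-3, against 19.9, 16.1 and 15.5 RPKM in WT-1, WT-2 and WT-3. Each knockdown library lay above each wild-type library, and the groups did not overlap. Such a lack of overlap with the knockdown higher was found for 12.2% of all tested loci. The values rest on 2046, 2267 and 2217 reads in the knockdown libraries and on 1137, 864 and 952 reads in the wild-type libraries, assigned to a gene model of 1213 bp.

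The caleosin averaged 36.8 ± 1.24 RPKM in rbpl and 17.2 ± 2.40 RPKM in the wild type (SD, n = 3 each), a ratio of means of 2.14. On the log2(RPKM + 1) scale it rose by 1.06 with a standard error of 0.12 and a 95% interval of 0.79 to 1.34 (limma, adjusted p = 0.00259). That interval corresponds to a 1.73-fold to 2.52-fold rise. A two-sided exact permutation test on RPKM gave p = 0.1, the smallest that 3 libraries against 3 allow. The authors' deposited table gives the caleosin a log2 fold change of 1.10, with an unadjusted p-value of 0.000228.

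Among all tested loci the size of this rise was uncommon. A log2 fold change at least as high was found for 202 of the 17507 tested loci, the caleosin included, and 179 of these passed the test. By adjusted p, 131 loci were at or below the value of the caleosin, of which 71 were higher in the knockdown. Among the 6062 tested loci with a mean level of 10 to 100 RPKM, the range that holds the caleosin, 3.25% rose. The rank of the caleosin by level within a library was 2550, 2448 and 2377 in rbpl-1 to rbpl-3, against 4200, 4977 and 5146 in WT-1 to WT-3.

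**Figure D1:**
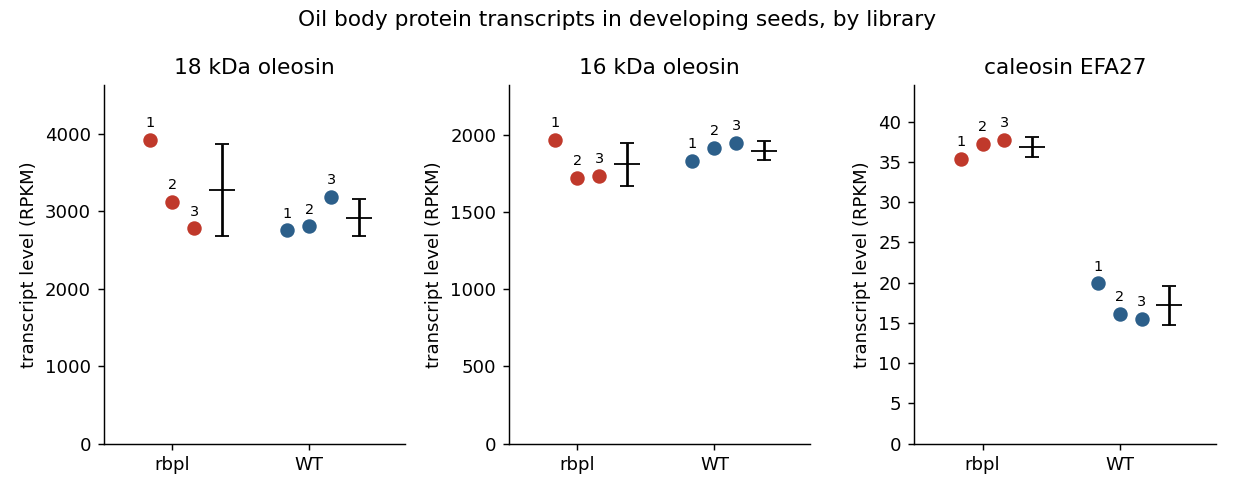
Transcript levels (RPKM, each axis from 0) of the 3 oil body proteins in the 3 rbpl and 3 WT libraries, with the replicate number above each point and the mean ± SD beside each group. The caleosin lies at 35.4 to 37.8 RPKM in rbpl and 15.5 to 19.9 RPKM in WT, while the groups overlap for both oleosins.

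The 18 kDa oleosin is the larger of the oleosins followed here and was the most abundant of the 3 transcripts. Its level was 3926, 3120 and 2779 RPKM in knockdown libraries rbpl-1 to rbpl-3, against 2753, 2808 and 3188 RPKM in wild-type libraries WT-1 to WT-3. The groups overlapped, with rbpl-1 the highest library and rbpl-3 below both WT-2 and WT-3. The means were 3275 ± 589 RPKM in rbpl and 2916 ± 237 RPKM in the wild type (SD, n = 3 each). The fitted log2 fold change of 0.16 had a standard error of 0.16 and a 95% interval of -0.20 to 0.51, and the adjusted p by limma was 0.616. The exact permutation test, two-sided, gave p = 0.6. The interval corresponds to a ratio of 0.868 to 1.43, so a 2-fold rise lies outside it, while any change within these limits does not.

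For this oleosin the spread among the knockdown libraries was the wider one, a difference that was not tested. The coefficient of variation of its RPKM was 17.99% in rbpl and 8.13% in the wild type. Tested loci within 2-fold of its level, 27 in all, had a median coefficient of variation of 9.43% in rbpl and 18.2% in the wild type. On the log2(RPKM + 1) scale rbpl-1 stood at 1.33 times the other knockdown libraries, a departure matched or exceeded by 3.05% of tested loci in that library, and rbpl-3 at 0.794 times, matched or exceeded by 6.84%. Without rbpl-1 the log2 fold change of the 18 kDa oleosin was 0.02 (adjusted p = 0.975 by limma). Its reads numbered 182506, 152751 and 131273 in the knockdown libraries, against 126474, 121110 and 157813 in the wild-type libraries, so counting error is small beside these differences.

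The 16 kDa oleosin, the smaller of the oleosins followed here, also coats rice oil bodies. Its level was 1968, 1723 and 1734 RPKM in knockdown libraries rbpl-1 to rbpl-3, against 1832, 1915 and 1947 RPKM in wild-type libraries WT-1 to WT-3. The groups overlapped, since rbpl-1 was the highest library of all and rbpl-2 and rbpl-3 the lowest. The means were 1808 ± 139 RPKM in rbpl and 1898 ± 59.6 RPKM in the wild type (SD, n = 3 each). The fitted log2 fold change of -0.07 had a standard error of 0.11 and a 95% interval of -0.33 to 0.19 (limma, adjusted p = 0.759). The exact permutation test, two-sided, gave p = 0.4. The interval corresponds to a ratio of 0.794 to 1.14. Under median-of-ratios scaling the sign of this change turned, with a value close to 0.

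Both oleosins were among the most abundant transcripts of the seed. By RPKM the 18 kDa oleosin ranked between 7 and 13 in the knockdown libraries and between 11 and 16 in the wild-type libraries. The 16 kDa oleosin ranked between 24 and 28 in the knockdown and between 25 and 29 in the wild type. Of the 66 tested loci with a mean of at least 1000 RPKM, 1 rose and 1 fell (1.52% each). In the authors' deposited table neither oleosin has a p-value below 0.05, with log2 fold changes of 0.17 for the 18 kDa form and -0.07 for the 16 kDa form and unadjusted p-values of 0.384 and 0.362.

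**Figure D2:**
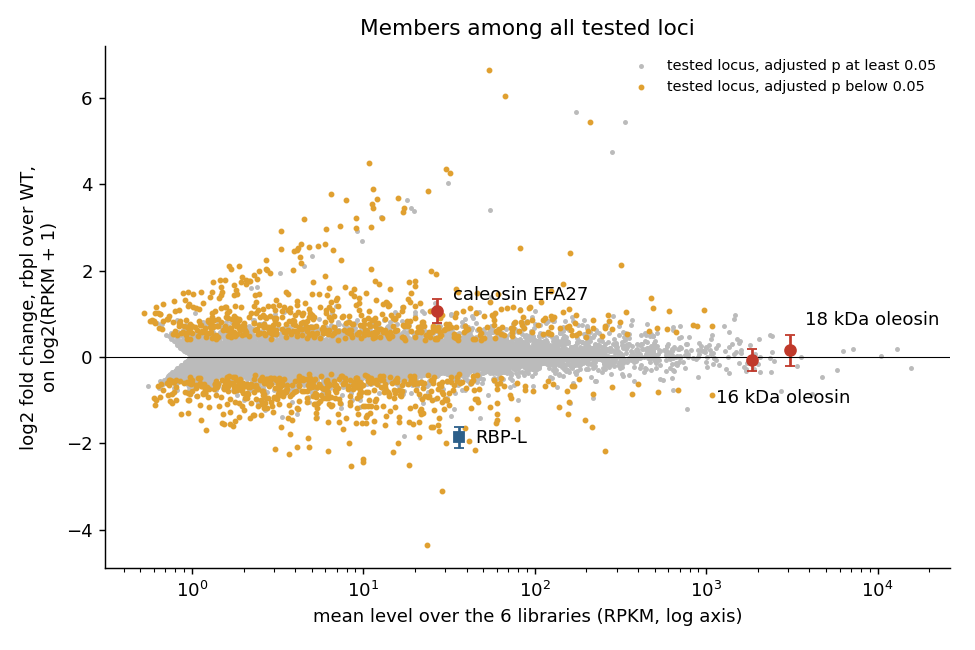
Log2 fold change of rbpl over WT on log2(RPKM + 1) against the mean level over the 6 libraries (log axis) for the 17507 tested loci, with the 3 oil body loci (red) and RBP-L (blue square) and their 95% intervals. The caleosin lies at 1.06 near the middle of the range of levels, and both oleosins lie close to 0 near its upper end.

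The order of levels was the same in all 6 libraries, with the 18 kDa oleosin highest, the 16 kDa oleosin next and the caleosin far below. The lowest value of the 18 kDa oleosin, 2753 RPKM in WT-1, exceeded the highest of the 16 kDa oleosin, 1968 RPKM in rbpl-1. Summed, the 3 transcripts came to 5929, 4880 and 4550 RPKM in knockdown libraries rbpl-1 to rbpl-3, against 4604, 4740 and 5151 RPKM in wild-type libraries WT-1 to WT-3. These sums overlapped between the groups, with means of 5120 ± 720.2 RPKM in rbpl and 4832 ± 285 RPKM in the wild type (SD, n = 3 each), and without rbpl-1 the difference of the means turned negative, at -116 RPKM. The sum made up 0.827 ± 0.107% of all RPKM in rbpl and 0.795 ± 0.0425% in the wild type (SD, n = 3 each).

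Ratios within a library do not depend on how libraries are scaled. The caleosin stood at 0.601, 0.769 and 0.837 RPKM per 100 RPKM of summed oleosins in rbpl-1 to rbpl-3, against 0.434, 0.341 and 0.301 in WT-1 to WT-3. The groups did not overlap, although rbpl-1, with the most oleosin, had the lowest caleosin ratio of its group and WT-1 the highest of its own. The means were 0.736 ± 0.122 in rbpl and 0.359 ± 0.0682 in the wild type (SD, n = 3 each). The summed 18 kDa and 16 kDa oleosin transcripts thus exceeded the caleosin EFA27 transcript 139-fold on average in rbpl and 285-fold in the wild type. The ratio of the 18 kDa to the 16 kDa oleosin was 1.99, 1.81 and 1.60 in rbpl-1 to rbpl-3, against 1.50, 1.47 and 1.64 in WT-1 to WT-3. Here rbpl-3 lay below WT-3, so the groups overlapped. The caleosin ratio uses the caleosin values given above, over summed oleosins that averaged 5083 RPKM in rbpl and 4814 RPKM in the wild type. Its lack of overlap is therefore no separate support for the caleosin difference. No test was made of these ratios or of the difference between the members' changes.

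**Figure D3:**
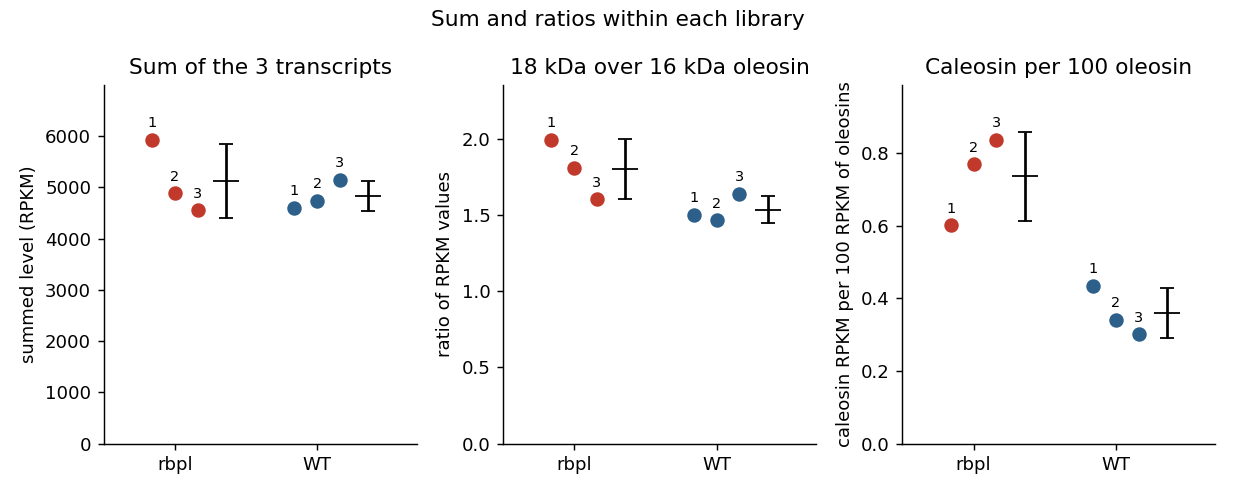
Sum of the 3 transcripts (RPKM), ratio of the 18 kDa to the 16 kDa oleosin, and caleosin RPKM per 100 RPKM of oleosins within each rbpl and WT library, with replicate numbers and mean ± SD. The sum and the oleosin ratio overlap between the groups, while the caleosin ratio is 0.601 to 0.837 in rbpl and 0.301 to 0.434 in WT.

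WT-1 departed little at the oleosins and upward at the caleosin. On the log2(RPKM + 1) scale it stood at 0.920 times the mean of WT-2 and WT-3 for the 18 kDa oleosin and at 0.949 times for the 16 kDa oleosin. These departures were matched or exceeded by 77.3% and 85.7% of tested loci in that library. At the caleosin WT-1 stood at 1.25 times the other wild-type libraries, toward the knockdown level, a departure matched or exceeded by 41.2% of tested loci. Without WT-1 the caleosin rose by 1.17 on the log2 scale with a 95% interval of 0.99 to 1.35 (limma, adjusted p = 3.26e-06). Without WT-1 the background was 8.51% of 17372 tested loci that rose and 9.51% that fell. The oleosins again missed the threshold without WT-1, with log2 fold changes of 0.12 for the 18 kDa form and -0.10 for the 16 kDa form and adjusted p of 0.619 and 0.515 by limma.

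The oleosins and the caleosin ranked the 6 libraries in different orders. Likeness was measured as the Pearson correlation of log2(RPKM + 1) over these libraries, which form separate groups, so it is a description. The oleosins correlated at 0.52, and among 7030 other loci with a mean of at least 10 RPKM the 16 kDa oleosin ranked 1077 in likeness to the 18 kDa oleosin. The caleosin correlated at 0.33 with the 18 kDa oleosin and at -0.57 with the 16 kDa oleosin. The loci closest to the mean pattern of the 3 members were LOC_Os01g56680 on chromosome 1 and LOC_Os03g47050 on chromosome 3, with correlations of 0.998 and 0.996. The first averaged 116 ± 17.4 RPKM in rbpl and 64.9 ± 3.64 RPKM in the wild type (SD, n = 3 each), a log2 fold change of 0.82. The other averaged 14.7 ± 1.08 RPKM in rbpl and 10.3 ± 0.457 RPKM in the wild type (SD, n = 3 each), a log2 fold change of 0.47. Both were picked for following, over the same libraries, a pattern that includes the group difference of the caleosin, so these values describe them and no test is given. What these loci encode was not analysed here.

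Of the 10 tested loci nearest to the caleosin in order of locus number, 1 rose and 0 fell, with log2 fold changes from -0.41 to 0.74 and a median of -0.25, against a median of -0.04 over all tested loci. Of those nearest to the 18 kDa oleosin, 0 rose and 1 fell, with values from -0.46 to 0.06. Near the 16 kDa oleosin 0 of 10 changed by limma and 0 by limma-voom on recovered reads, with values from -0.67 to 1.17. An unadjusted p under 0.05 was reached by 4 of the 10 neighbours of the caleosin, 1 of the 18 kDa oleosin and 2 of the 16 kDa oleosin, and by 21.6% of all tested loci. Without WT-1, 2, 1 and 2 neighbours changed near the caleosin, the 18 kDa and the 16 kDa oleosin. Over all tested loci 6.56% changed in either direction, and 18% without WT-1. The medians were not matched by level. Neighbours of the caleosin with wild-type means of 1.46 to 5.20 RPKM all had negative log2 fold changes. Those at higher levels ran from -0.41 to 0.74. With 10 loci per member these counts and medians are a description. Whether the surroundings of a member differ between the line and the cultivar was not tested. The caleosin and 16 kDa oleosin loci are separated by 280 loci of the deposited table on chromosome 4, and a further 673 lie between the 16 kDa oleosin and RBP-L.

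**Figure D4:**
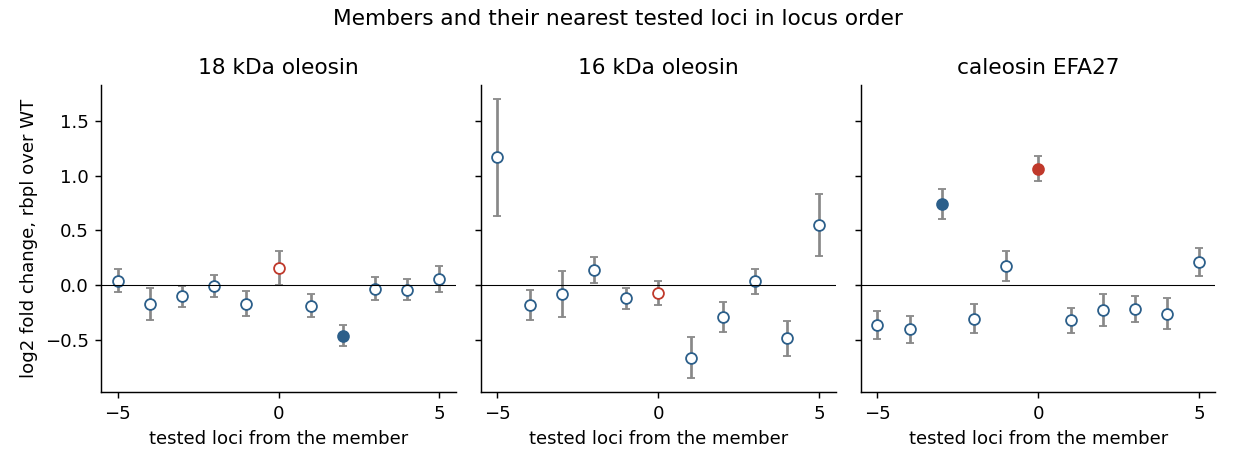
Log2 fold change of rbpl over WT (± standard error) of each oil body locus (red, at 0) and of its neighbours (blue), the 5 tested loci nearest on either side, in order of locus number, filled where the adjusted p is below 0.05. The caleosin, at 1.06, lies above all 10 of its neighbours, of which the highest is at 0.74.

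The call for the caleosin held under each of the 13 other processing choices tried, with log2 fold changes of 0.998 to 1.17 and limma adjusted p between 3.26e-06 and 0.0225. The oleosins missed the threshold under all 13. The 18 kDa form ranged from 0.02 to 0.27 and the 16 kDa form from -0.13 to 0.0039, with adjusted p of at least 0.458 and 0.515 by limma.

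**Figure D5:**
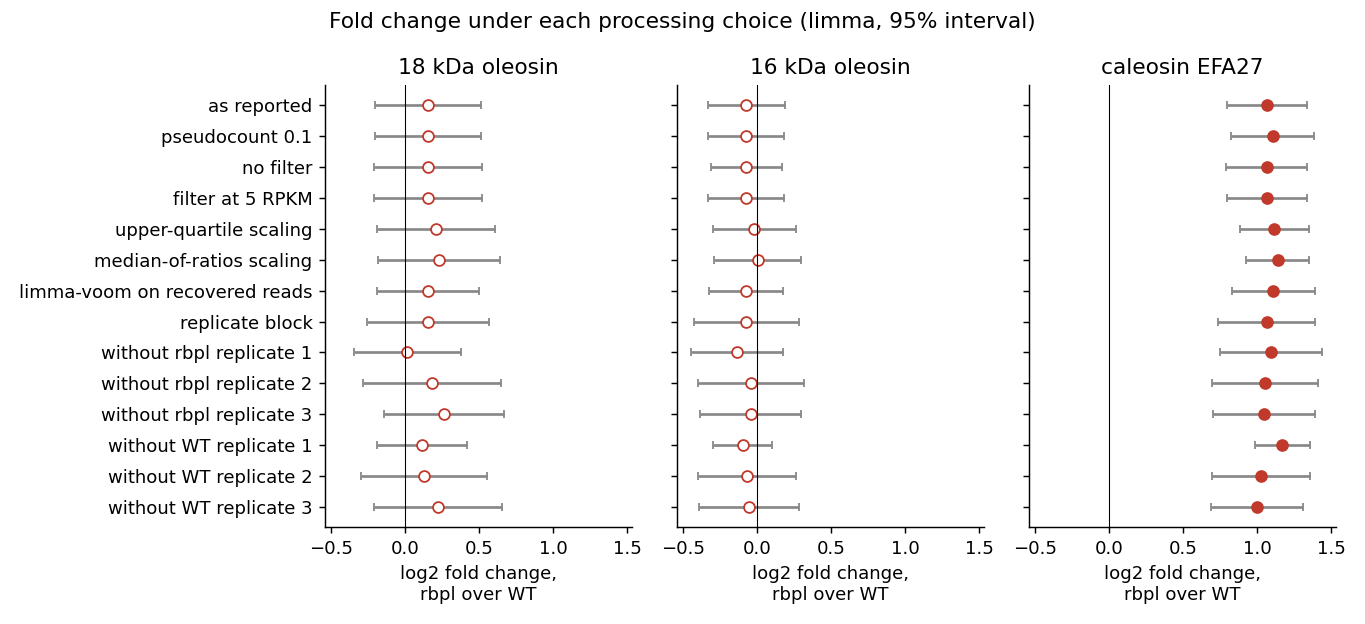
Log2 fold change of rbpl over WT with its 95% interval for each oil body transcript as reported and under 13 other processing choices, with filled points where the adjusted p by limma is below 0.05. The caleosin stays between 0.998 and 1.17 and filled throughout, while the interval of each oleosin includes 0 throughout.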

How the data were processed

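Libraries were prepared from total RNA of dehulled developing seeds with a NEBNext Ultra kit and sequenced, per the labels' protocols. For the aligner, counter, genome build and annotation, nothing is stated in the labels. The authors deposited 1 table with the RPKM of each of 6 libraries, per the file headers, and with group means, their ratio, its log2 and an unadjusted p-value, which are quoted as the authors' values only.

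Library totals, gene model lengths and whole reads were recovered from the steps of the RPKM values. Of 32287 loci above 0, 100% gave whole reads in all 6 libraries within 0.001 reads. The shortest length that fitted was taken from a long range, so a locus with reads in few libraries could hardly fail. Where the 6 counts of a locus share a divisor, count and length come out too small, which can affect low loci. Totals were 47633680, 50159592 and 48406895 reads for rbpl-1 to rbpl-3 and 47072581, 44187374 and 50714582 for WT-1 to WT-3. Read numbers bear on counting error only. The p-values set the difference between the groups against the spread between the 3 libraries of a group, which limma moderates over the tested loci.

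Groups were compared two-sided with limma 3.58.1 in R 4.3.3, using its trend and robust settings without covariates, on log2(RPKM + 1). Loci averaging at least 1 RPKM in either group were tested (17507), p-values were Benjamini-Hochberg adjusted over them, and the threshold was 0.05. Fold changes on this scale understate those of low loci. For simulated libraries of rbpl against WT with 17507 loci, limma found 75% of 100 loci set to change 2-fold, 97% of 100 set to change 4-fold and 8 loci without a set change. The simulated noise was independent between libraries, with 1 spread per locus for both groups, and loci at the lowest levels were not set to change. The departure of WT-1 is thus absent from the simulation, and recovery in the real libraries may differ. The RPKM of each member was also compared by an exact permutation test. Python 3.11.15 with numpy 2.4.6, pandas 2.3.3, scipy 1.17.1 and matplotlib 3.10.9 did the rest.

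The members and tests were chosen with earlier results of these data known. Named loci were the members, RBP-L and the 2 loci with a mean of at least 10 RPKM closest to the members' mean pattern. The alternatives were another pseudocount, other filters and scalings, limma-voom on recovered reads, a replicate block and leaving out each library. None of the identifiers was found among 39387 RefSeq rice genes (0 matched), so a wider list of oil body and storage lipid genes was not tested and no protein sequence is shown.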

Additional observations from a re-analysis of the deposited data

How the results depend on the processing

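The count of members changed was 1 under all 13 alternatives. RBP-L was lower in the knockdown under all of them, with log2 fold changes of -1.93 to -1.79 and adjusted p of at most 0.00402 by limma. Under median-of-ratios scaling the log2 fold change of the 16 kDa oleosin turned to 0.0039 (adjusted p = 0.989 by limma, 0.515 to 0.989 over its alternatives). The count of changed loci over the whole table, 1148 (6.56% of those tested), was 660 when loci had to average 5 RPKM, a filter that 10744 loci passed. Leaving out 1 library gave 356 changed of 17525 tested loci (without rbpl-1) to 3130 of 17372, or 18% (without WT-1). Between these lay 389 without rbpl-2, 453 without rbpl-3, 736 without WT-2 and 667 without WT-3. The share of loci called therefore differed widely between these fits. The cause was not tested. The caleosin was called in each of these fits.

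The replicate numbers are only shared: libraries 1, 2 and 3 of the groups deviated from their group means with correlations of 0.0476, 0.259 and -0.380, and for 2 of the 6 libraries the best match was the library of the same number. In the fit with a replicate block 963 loci changed, the caleosin rose by 1.06 (adjusted p = 0.00371 by limma), and the oleosins missed the threshold. With 3 libraries per group, the oleosin intervals run from a ratio of 0.868 to 1.43 for the 18 kDa form and from 0.794 to 1.14 for the 16 kDa form. Over the alternatives their outermost limits were 0.789 and 1.59 for the 18 kDa form and 0.735 and 1.25 for the 16 kDa form.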
